A study of Homo sapiens with 62 samples.

Results

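The genes described here are 36 human imprinted genes, chosen by their symbols from a textbook list of imprinted domains. In a table of 37415 gene rows, 33 of these symbols were found, in 36 rows, because CDKN1C, SLC22A18 and NDN have 2 rows each. PHLDA2, ZDBF2 and MAGEL2 were not among the rows, so their levels are not analysed here. Levels were measured by polyA RNA sequencing in 62 libraries of the human embryonic stem cell (hESC) line WIBR3 and of organoids grown from it, in 31 groups of 2 libraries. A level is given in the authors' deposited TPM, which is scaled per transcript length and to the same total in every library.

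The first set of groups compares loss of NEAT1, the non-coding RNA around which nuclear paraspeckles form. Clone 1 and clone 2 carry the genotype NEAT1-/-, each being 1 clone of WIBR3, and the control is labelled CTR. Each of these was sampled as hESC at day 0, and as cortical organoids at day 19, nephron organoids at day 13, hepatic organoids at day 21 and lung organoids at day 19, all under the condition named PN96. The second set is wild type (WT): cortical organoids under Chip at day 54, PN96 at day 53 and SPIN at day 60, nephron organoids under PN96 at day 7, hepatic organoids under Chip at day 17 and under PN96 at days 17 and 21, and lung organoids under PN96 at day 20. The third set is WT hESC with or without PF-127 (Pluronic F-127, a thermogelling polymer) at 0, 1, 4 and 24 h, where the treatment label is PN96 with it and NT96 without it, although the titles of both begin with PN96. The labels do not say how CTR differs from WT, and whether the libraries of a group are separate cultures is not stated, so p-values measure only the spread between these libraries.

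An imprinted gene is transcribed mainly from the copy inherited from a single parent. The choice rests on DNA methylation that is laid down at control regions in the germ line and is kept through the waves of demethylation after fertilisation by proteins such as ZFP57, ZNF445, TRIM28 and DNMT1. The genes lie in clusters, and many regulate fetal growth, placental function or brain development: paternally expressed genes such as IGF2 tend to promote growth, and maternally expressed genes such as CDKN1C tend to restrain it. TPM adds up both parental copies, so the parental allele was not measured here, and a change in level does not show a change in imprinting.

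Control regions of this kind often sit at a promoter, and ZFP57 recognises the letters TGCCGC when the CpG inside is methylated. RefSeq gave 53 windows of 300 bases around the transcription starts of 23 of the genes, MAGEL2 and ZDBF2 included (assembly GRCh38.p14), some of which overlap each other. TGCCGC or its reverse complement GCGGCA, which can overlap in the same stretch, occurred in 22 of the 53 windows (41.5%), against 16.7% of 35116 such windows over all genes, and the median number of CpG was 18 against 14. A match describes the letters and is not a binding site. The windows of SNURF, PLAGL1 and MEST are shown because their starts lie at textbook control regions. The MEG3 window lies in a textbook imprinted domain and is not given here as its germ-line control region. These windows are also shown because their transcripts take opposite courses in the results below. Capitals mark the motif on either strand, and each window reads 5′ to 3′ in the direction of its gene.
The first window, at chr15:24954737-24955036 on the plus strand, holds 18 CpG and 2 matches. It is shared by SNURF and SNRPN, the genes that fell in every organoid type.
SNURF: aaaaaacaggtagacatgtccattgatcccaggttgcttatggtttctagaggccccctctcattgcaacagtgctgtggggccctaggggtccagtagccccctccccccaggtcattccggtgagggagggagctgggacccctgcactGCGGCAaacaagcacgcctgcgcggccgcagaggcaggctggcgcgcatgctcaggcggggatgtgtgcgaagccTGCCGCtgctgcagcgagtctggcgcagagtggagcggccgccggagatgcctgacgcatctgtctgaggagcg
The PLAGL1 window at chr6:144008210-144008509 on the minus strand holds 39 CpG and 2 matches. PLAGL1 rose in every organoid type.
PLAGL1: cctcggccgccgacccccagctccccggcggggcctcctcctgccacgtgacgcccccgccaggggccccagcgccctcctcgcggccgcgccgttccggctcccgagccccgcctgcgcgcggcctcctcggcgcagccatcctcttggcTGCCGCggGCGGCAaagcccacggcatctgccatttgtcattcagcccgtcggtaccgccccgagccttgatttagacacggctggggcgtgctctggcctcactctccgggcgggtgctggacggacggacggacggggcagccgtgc
The MEST window at chr7:130491835-130492134 on the plus strand holds 25 CpG and 3 matches. MEST is transcribed at a high level in hESC already.
MEST: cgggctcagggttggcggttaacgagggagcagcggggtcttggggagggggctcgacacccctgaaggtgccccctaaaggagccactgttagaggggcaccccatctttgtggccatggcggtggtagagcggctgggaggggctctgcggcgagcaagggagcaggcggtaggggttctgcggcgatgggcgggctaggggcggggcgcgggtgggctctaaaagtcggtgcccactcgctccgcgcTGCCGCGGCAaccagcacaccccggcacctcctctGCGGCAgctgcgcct
The MEG3 window at chr14:100825882-100826181 on the plus strand holds 18 CpG and 1 match. MEG3 stayed close to 0 in most libraries.
MEG3: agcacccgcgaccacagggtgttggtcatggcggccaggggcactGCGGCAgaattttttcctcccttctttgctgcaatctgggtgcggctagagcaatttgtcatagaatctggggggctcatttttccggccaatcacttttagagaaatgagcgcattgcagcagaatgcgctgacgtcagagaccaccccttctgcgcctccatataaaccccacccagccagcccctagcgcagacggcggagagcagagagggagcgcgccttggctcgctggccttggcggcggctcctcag

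Of the 36 rows, 27 reached 1 TPM in at least 2 libraries (75.0%, against 70.6% of all rows), and 14 were at 1 TPM or more in all 62 libraries. The highest levels were those of IGF2 (up to 7096 TPM), NNAT (up to 3074 TPM), MEST (up to 2253 TPM) and SNURF (up to 1920 TPM). The other 9 rows never passed 1 TPM in 2 libraries. H19, the maternally expressed non-coding RNA next to IGF2, was listed at 0 in 59 of 62 libraries and reached 0.224 TPM at most. PEG3 reached at most 0.129 TPM, NLRP2 0.117 TPM, MEG8 0.106 TPM, NAP1L5 0.725 TPM and ZIM2 0.972 TPM, while MKRN3 passed 1 TPM in a single library with 1.14 TPM. The annotated NDN gene was listed at 0 in all 62 libraries, whereas a second NDN row without a position reached 8.30 TPM. A value at 0 can be a failed estimate: the 2 rows of the ribosomal protein gene RPS18, which every cell uses, added up to between 0.147 and 3.37 TPM. No direction is therefore drawn from these 9 rows.

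Several of the genes overlap others, and how reads in shared stretches were assigned is not stated, nor is whether the libraries kept strand. SNRPN and SNURF lie on the same transcripts, NNAT lies inside an intron of BLCAP on the other strand, PEG10 and SGCE share 248 bases on opposite strands, and KCNQ1OT1 is antisense to KCNQ1. IGF2 shares exons with the read-through gene INS-IGF2, a neighbour named after its values were seen, which averaged 1816 TPM in hepatic CTR organoids against 2.05 TPM in CTR hESC. Values of these genes are uncertain to the extent that reads were split between partners. The map of group means over all 27 measured rows shows the layout of the results.

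**Figure D1:**
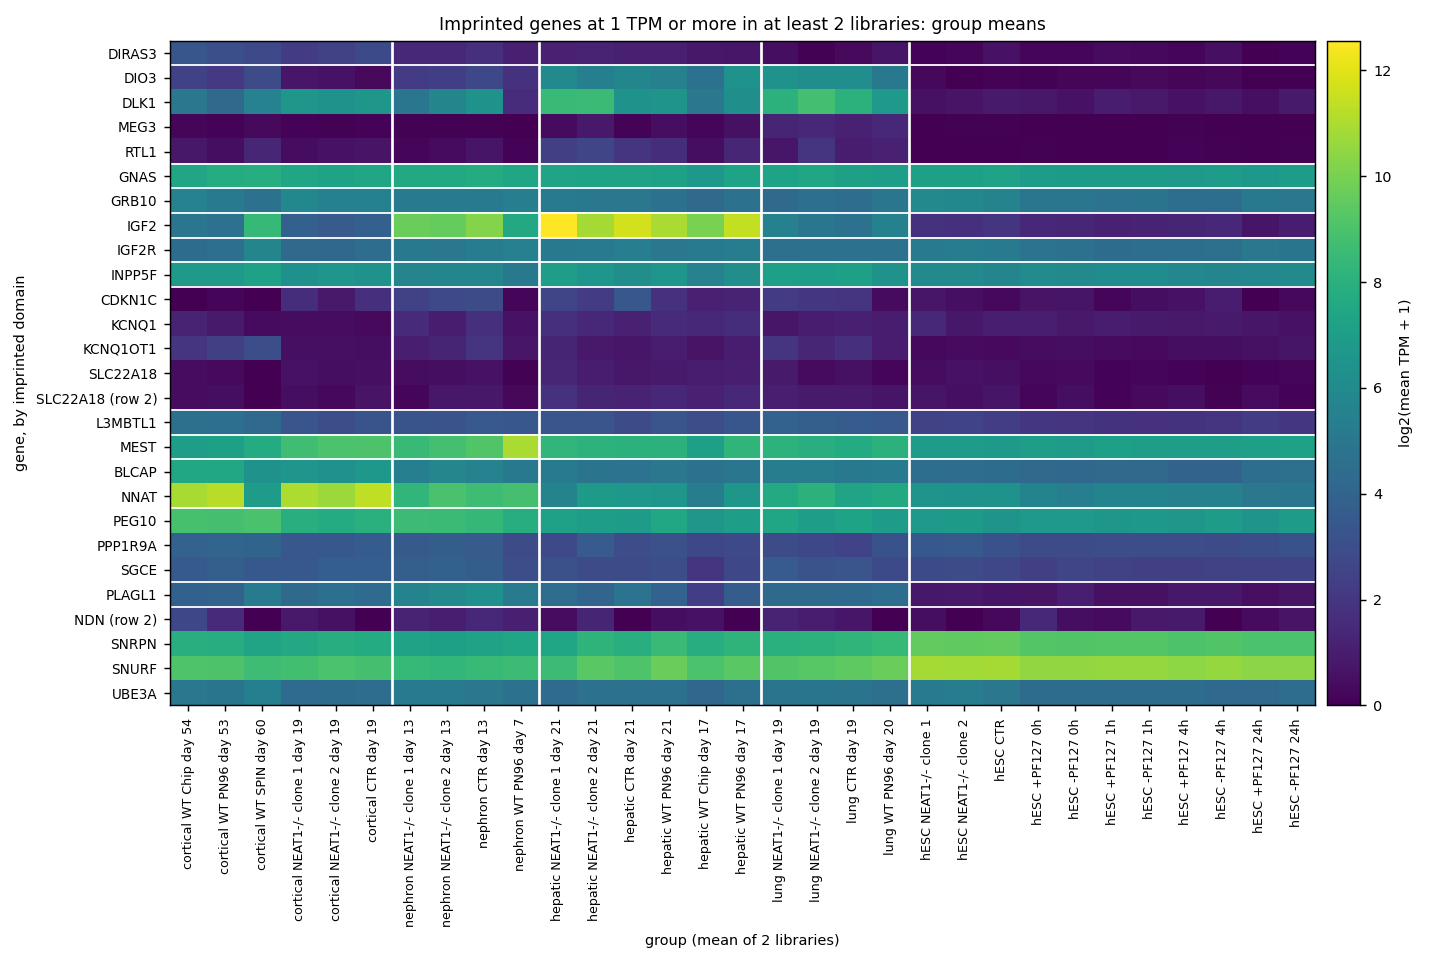
Level of each measured imprinted gene row (27 rows, ordered by domain) in each of the 31 groups, as log2(mean TPM + 1) over 2 libraries. Brighter cells are higher: IGF2 is brightest in the hepatic and nephron groups, NNAT in cortical groups other than SPIN, and SNRPN and SNURF in hESC.

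In CTR organoids most imprinted genes that passed the test were higher than in CTR hESC. Comparisons used limma on log2(TPM + 1) over every gene with 1 TPM or more in at least 2 libraries of the fit, with p adjusted by Benjamini and Hochberg over all of them. Below, called means that this adjusted p was less than 0.05. Of 26 imprinted rows tested, 13 were higher and 5 lower in cortical organoids, where 52.5% of all genes tested were called (27.0% higher, 25.5% lower). In nephron organoids 16 were higher and 2 lower, with 52.5% of all genes called (36.7% higher, 15.8% lower). In hepatic organoids 8 were higher and 3 lower, with 43.3% of all genes called (25.1% higher, 18.2% lower). In lung organoids 11 were higher and 3 lower, with 39.8% of all genes called (20.3% higher, 19.6% lower). Among these 11, MEG3 passed the filter only through the lung libraries. The median log2 change of the imprinted rows was 0.58 in cortical, 1.05 in nephron, 0.35 in hepatic and 0.68 in lung organoids, beside medians over all genes tested of 0.03, 0.36, 0.08 and 0.01. Rescaling by size factors moved the median of all genes in nephron by -0.37 and changed the split there to 14 higher and 5 lower. These 4 comparisons share the same 2 hESC libraries.

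Across the 5 CTR cell types, hESC was the lowest for 16 of the 27 measured rows (59.3%), against 23.9% of all measured rows. A row could count as measured through organoid libraries alone, and several of these were below 1 TPM in CTR hESC. Some ranks rest on small differences there, as for MEG3 (0.0559 TPM in hESC, 0.0607 in nephron) and an SLC22A18 row (0.430 in hESC, 0.441 in cortical). The highest cell type was nephron for 8 rows (29.6%, against 29.4% of all measured rows), hepatic for 6 (22.2% against 16%), cortical for 5 (18.5% against 20.1%), lung for 5 (18.5% against 17.1%) and hESC for 3 (11.1% against 17.5%), shares near those of all genes. Read by the textbook parent of origin, 15 paternally expressed rows were tested, of which 10 were higher and 2 lower in cortical, 12 and 2 in nephron, 6 and 2 in hepatic, and 8 and 2 in lung organoids. Of 6 maternally expressed rows, 1 was higher and 2 lower in cortical, 2 higher in nephron, 1 higher in hepatic and 2 higher in lung organoids. The rows lower in cortical were KCNQ1 and UBE3A, with calls lost in 4 and 3 of 4 leave-outs of a library. A lung row called higher, MEG3, passed the filter only through lung libraries. UBE3A, which is paternally silenced in neurons, was kept in this class for all cell types, so the classes are not strict. The other 5 tested rows, GRB10, IGF2R, GNAS, BLCAP and INPP5F, whose imprinting also differs between tissues or transcripts, were counted in neither class. Of these, 2 were higher and 1 lower in cortical, 2 higher in nephron, and 1 higher and 1 lower, GRB10, in both hepatic and lung organoids. The 2 paternally expressed rows that fell were SNRPN and SNURF, which lie on the same transcripts, in each organoid type. Of all genes tested, 27.0% were higher and 25.5% lower in cortical and 36.7% and 15.8% in nephron organoids. The shares were 25.1% and 18.2% in hepatic and 20.3% and 19.6% in lung organoids. These class counts are those before rescaling, and the classes were not compared by a test. In bulk libraries, a change in the share of cells that express a gene and a change in RNA per cell cannot be told apart.

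**Figure D2:**
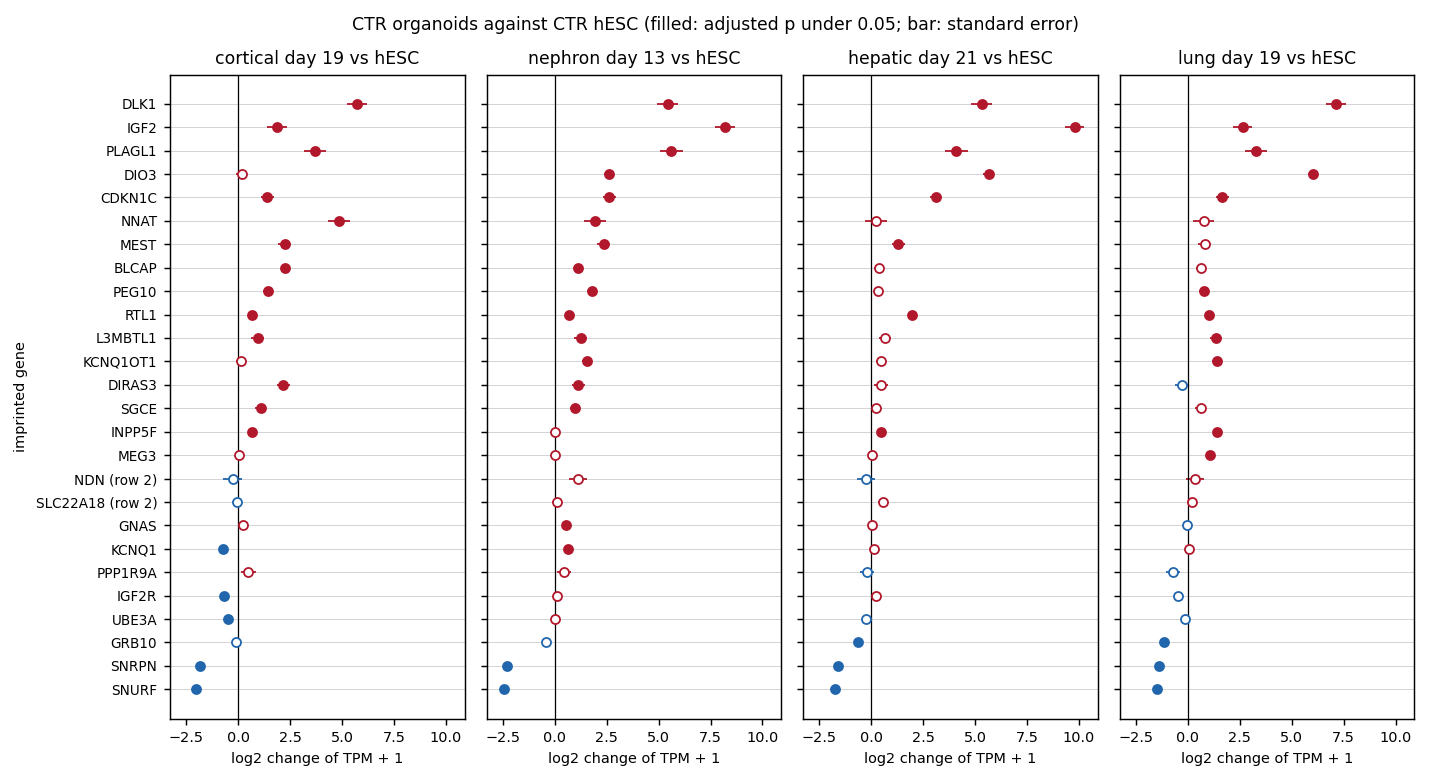
Log2 change ± standard error of the 26 tested imprinted rows in CTR cortical, nephron, hepatic and lung organoids against CTR hESC (limma on log2(TPM + 1), 2 libraries a group), with filled points where the adjusted p was under 0.05. IGF2, DLK1, PLAGL1 and CDKN1C lie to the right of 0 in every panel, and SNRPN and SNURF to the left.

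The widest range belonged to IGF2, the insulin-like growth factor that drives fetal growth (chromosome 11, 2129112 to 2149603, minus strand). Hepatic CTR organoids had 3800 and 2928 TPM, nephron CTR organoids 756.5 and 1634 TPM, lung CTR organoids 35.5 and 14.1 TPM, cortical CTR organoids 9.49 and 17.2 TPM, and CTR hESC 2.46 and 3.11 TPM. Hepatic and nephron organoids thus stood apart from all others, and no organoid library overlapped the hESC libraries. The log2 change was 9.79 ± 0.47 (SE) in hepatic (adjusted p = 3.8e-06), 8.20 ± 0.47 in nephron (adjusted p = 7.6e-06), 2.64 ± 0.47 in lung (adjusted p = 0.0027) and 1.87 ± 0.47 in cortical organoids (adjusted p = 0.0095). The cortical call was lost without hESC library 1 (adjusted p = 0.053) or cortical library 2 (0.076). Over the whole series, the 40 organoid libraries ranged from 9.22 to 7096 TPM of IGF2 with a median of 192.2, and the 22 hESC libraries from 0.446 to 3.11 TPM with a median of 1.63. IGF2-AS, a transcript antisense to IGF2, was higher too in nephron (36.3 ± 19.0 against 0.0766 ± 0.108 TPM, log2 change 5.02) and hepatic organoids (18.1 ± 6.74 TPM, log2 change 4.11), and without strand its reads cannot be told from those of IGF2.

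Next to IGF2 lies the KCNQ1 domain, whose member CDKN1C encodes p57, an inhibitor of the cell cycle (chromosome 11, 2883213 to 2885773, minus strand). CDKN1C rose in all 4 organoid types. It had 12.6 and 6.92 TPM in hepatic, 6.43 and 6.41 TPM in nephron, 2.52 and 3.07 TPM in lung and 1.69 and 2.75 TPM in cortical CTR organoids, against 0.177 and 0.228 TPM in CTR hESC. The log2 change was 3.11 ± 0.30 in hepatic (adjusted p = 1e-04) and 2.63 ± 0.30 in nephron organoids (adjusted p = 0.00021). KCNQ1OT1, the non-coding RNA whose transcription silences the domain on the paternal copy, rose in nephron (2.65 ± 0.81 against 0.232 ± 0.0085 TPM, log2 change 1.55, adjusted p = 0.00087) and lung organoids (2.24 ± 0.19 TPM, log2 change 1.39, adjusted p = 0.0021). The potassium channel gene KCNQ1 stayed between 0.202 and 2.46 TPM in all 62 libraries. Its calls, lower in cortical (log2 change -0.72) and higher in nephron organoids (0.66), were lost without any of the libraries in turn. SLC22A18, a transporter gene, was below 3 TPM in both rows.

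At the DLK1/MEG3 domain on chromosome 14, the paternally expressed gene DLK1 was far higher in every CTR organoid type than in CTR hESC, while DIO3 and RTL1 varied by type. DLK1 encodes a transmembrane protein related to Notch ligands that holds back differentiation (100725705 to 100738224, plus strand). It had 202.5 and 340.7 TPM in lung, 92.9 and 103.5 TPM in cortical, 40.5 and 130 TPM in hepatic and 104.9 and 60.1 TPM in nephron CTR organoids, against 0.866 and 0.862 TPM in CTR hESC. The organoid types overlapped each other apart from lung, and all lay far above hESC. Its log2 change was 7.14 ± 0.49 in lung, 5.73 ± 0.49 in cortical, 5.43 ± 0.49 in nephron and 5.31 ± 0.49 in hepatic organoids, with adjusted p between 3.8e-05 and 8e-05.

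DIO3, which encodes the deiodinase that inactivates thyroid hormone, lies at the far end of the domain (101561351 to 101563452, plus strand). It was high in lung (64.1 and 74.3 TPM) and hepatic CTR organoids (50.5 and 56.8 TPM), low in nephron (4.61 and 6.76 TPM), and close to 0 in cortical organoids (0 and 0.489 TPM) and hESC (0.0697 and 0.0897 TPM). The log2 change was 6.02 ± 0.26 in lung (adjusted p = 2e-05), 5.66 ± 0.26 in hepatic (adjusted p = 3.4e-06) and 2.61 ± 0.26 in nephron organoids (adjusted p = 9.5e-05), and cortical organoids were not called. In cortical organoids, then, DLK1 was called and DIO3 was not, and the difference between these genes was not tested. RTL1, a gene derived from a retrotransposon that supports the placenta in mice, was listed at 0 in both CTR hESC libraries and averaged 2.87 ± 0.0603 TPM in hepatic, 1.00 ± 0.103 TPM in lung, 0.628 ± 0.157 TPM in nephron and 0.603 ± 0.0454 TPM in cortical CTR organoids. It was called in all 4, no fold is given against 0, the cortical call was lost without any library in turn, and the nephron call in 3 of 4 leave-outs (adjusted p up to 0.094 and 0.089). RTL1 passed the filter of this fit mainly through hepatic organoids, where it was highest, so its calls were partly set by the filter. MEG3, the maternally expressed non-coding RNA of the domain, was called in lung organoids (1.12 and 1.28 TPM, against 0.0631 and 0.0487 TPM in CTR hESC; adjusted p = 0.0021). It passed the filter of this fit only through these 2 lung libraries, so its call was partly set by the filter. Without either of them MEG3 was not tested. No library of another organoid type passed 0.566 TPM of MEG3, apart from 1.31 TPM in a hepatic library of clone 2.

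On chromosome 7, MEST and PEG10 were abundant in every library. MEST encodes a protein of the hydrolase family that is abundant in mesoderm (130486171 to 130506465, plus strand). It had 561.9 and 568.0 TPM in nephron, 510.2 and 541.3 TPM in cortical, 281.4 and 262.3 TPM in hepatic and 294.4 and 125.1 TPM in lung CTR organoids, against 106.3 and 113.3 TPM in CTR hESC. MEST rose in nephron (log2 change 2.35 ± 0.31, adjusted p = 4e-04), cortical (2.25 ± 0.31, adjusted p = 0.00043) and hepatic organoids (1.30 ± 0.31, adjusted p = 0.0092), and lung was not called (0.80 ± 0.31, adjusted p = 0.069). The hepatic call was lost without hESC library 1 (adjusted p = 0.052) or hepatic library 1 (0.055). PEG10, a retrotransposon-derived gene needed for the placenta in mice (94656325 to 94669695, plus strand), had 244.5 and 419.5 TPM in nephron and 237.4 and 258.4 TPM in cortical CTR organoids, against 94.0 and 88.2 TPM in CTR hESC (log2 change 1.80 ± 0.24 and 1.43 ± 0.24, adjusted p = 0.00039 and 0.0011). Its lung call (0.76 ± 0.24, adjusted p = 0.032) was lost in 3 of 4 leave-outs of a library, with an adjusted p between 0.097 and 0.14.

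SGCE, the sarcoglycan gene that shares its start region with PEG10, rose with it in cortical (12.7 ± 1.82 against 5.45 ± 0.348 TPM, log2 change 1.08) and nephron organoids (11.8 ± 1.60 TPM, log2 change 0.99). The nephron call of SGCE was lost without hESC library 2 (adjusted p = 0.061) or nephron library 2 (0.064). PPP1R9A, the next gene along, which encodes an actin-binding protein of neurons, was not called in any organoid type against hESC and stayed between 2.83 and 19.7 TPM over all libraries. GRB10, an adaptor that restrains insulin and IGF receptor signalling, went the other way. It fell in lung (20.9 and 22.7 against 46.6 and 51.2 TPM in hESC, log2 change -1.13 ± 0.19, adjusted p = 0.0019) and hepatic organoids (33 and 29 TPM, log2 change -0.64 ± 0.19, adjusted p = 0.023), with no overlap. The hepatic call of GRB10 was lost without any of the 4 libraries in turn (adjusted p up to 0.13).

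NNAT, which encodes neuronatin, a small membrane proteolipid of the developing brain (chromosome 20, 37521206 to 37523693, plus strand), had 3064 and 2126 TPM in cortical CTR organoids. Nephron CTR organoids had 185.4 and 622.9 TPM, lung 221.2 and 97.5 TPM and hepatic 102.1 and 102.8 TPM, against 86.7 and 87.1 TPM in CTR hESC. Cortical organoids stood clear of all others, with a log2 change of 4.86 ± 0.53 (adjusted p = 0.00013). The nephron call of NNAT (1.96 ± 0.53, adjusted p = 0.014) was lost in 3 of 4 leave-outs, with an adjusted p between 0.058 and 0.074. BLCAP, the host gene of NNAT, moved in the same types: 110.4 and 97.0 TPM in cortical and 37.5 and 56.9 TPM in nephron CTR organoids, against 21.8 and 19.5 TPM in CTR hESC (log2 change 2.27 ± 0.23 and 1.13 ± 0.23, adjusted p = 9.1e-05 and 0.0037). Also on chromosome 20, L3MBTL1, which encodes a chromatin-compacting protein, rose in nephron (10.5 ± 0.288 against 3.81 ± 0.106 TPM, log2 change 1.26) and lung organoids (11.7 ± 4.61 TPM, log2 change 1.35). Its cortical call (8.47 ± 3.07 TPM, log2 change 0.94) was lost in 3 of 4 leave-outs, with an adjusted p up to 0.2. GNAS, which encodes the stimulatory G protein alpha subunit and is imprinted only in some tissues, stayed between 100.8 and 228.7 TPM in all libraries. Its nephron call (212.2 ± 23.3 against 147.4 ± 5.0 TPM, log2 change 0.52) was lost under rescaling by size factors (0.11, adjusted p = 0.44).

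PLAGL1, a zinc-finger transcription factor that slows the cell cycle (chromosome 6, 143940300 to 144064599, minus strand), rose in all 4 types. It had 75.3 and 81.1 TPM in nephron, 30.5 and 23.1 TPM in hepatic, 16.4 and 24.1 TPM in cortical and 31.2 and 6.60 TPM in lung CTR organoids, against 0.800 and 0.441 TPM in CTR hESC. Nephron organoids were the highest with no overlap with other types, and the log2 change there was 5.62 ± 0.55 (adjusted p = 8.7e-05). The other changes of PLAGL1 were 4.1, 3.7 and 3.28 on the log2 scale, with a largest adjusted p of 0.002. HYMAI, the non-coding RNA that starts in the same control region, averaged 5.72 TPM in nephron CTR organoids and was listed at 0 in CTR hESC. IGF2R, the receptor that clears IGF2, is imprinted in mice and variably in humans. It fell in cortical organoids (17.7 and 24.8 against 34.8 and 34.3 TPM, log2 change -0.70).

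Of the members outside these clusters, DIRAS3, a small GTPase that restrains growth, rose in cortical organoids (4.37 and 7.72 against 0.388 and 0.641 TPM, log2 change 2.18 ± 0.33, adjusted p = 0.00067) and, with a call lost in 3 of 4 leave-outs, in nephron organoids (2.80 and 1.90 TPM, log2 change 1.14). INPP5F, a phosphoinositide phosphatase gene, of which only an internal transcript is imprinted, had 138.9 and 144.0 TPM in lung, 77.0 and 90.3 TPM in cortical and 69.7 and 76.6 TPM in hepatic CTR organoids, against 53.7 and 50.6 TPM in CTR hESC. Lung INPP5F was the highest, with a log2 change of 1.42 ± 0.11 (adjusted p = 9.1e-05). The cortical log2 change was 0.67, and the hepatic call (0.48 ± 0.11, adjusted p = 0.0095) was lost without hESC library 2 (0.078) or hepatic library 2 (0.07).

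The SNRPN locus on chromosome 15, which is lost in Prader-Willi syndrome, was lower in every organoid type. SNRPN encodes a splicing protein, SNURF a small protein from the same transcript. SNRPN (24823637 to 24978723, plus strand) had 208.9 and 209.4 TPM in cortical, 158.4 and 142.8 TPM in nephron, 248.9 and 241.7 TPM in hepatic and 219.2 and 373.6 TPM in lung CTR organoids, against 720.9 and 769.0 TPM in CTR hESC. Every organoid library lay below every CTR hESC library, and the log2 changes were -1.83, -2.30, -1.60 and -1.38, each ± 0.21, with a largest adjusted p of 0.0012. SNURF gave -2.02, -2.42, -1.74 and -1.46, each ± 0.22, with group means of 458, 349, 558 and 703 TPM against 1867 TPM in CTR hESC. SNHG14, the long transcript that continues from SNRPN towards UBE3A, was lower as well, at 9.93, 11.3, 15.3 and 21.2 TPM against 35.0 TPM in CTR hESC (log2 change -1.74, -1.55, -1.14 and -0.72). UBE3A, the ubiquitin ligase gene that is paternally silenced in neurons and lost in Angelman syndrome, was lower in cortical organoids (20.0 and 22.9 against 29.3 and 31.9 TPM, log2 change -0.49), and that call was lost in 3 of 4 leave-outs.

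Markers of other cells moved with these levels, and their part in the differences was not tested. All 5 hESC markers fell in cortical and nephron organoids, and 4 of 5 in hepatic and lung organoids. Their summed level was 79.2 and 98.0 TPM in cortical, 269.4 and 291.5 TPM in nephron, 955.5 and 1111 TPM in hepatic and 968.6 and 1909 TPM in lung CTR organoids, against 3187 and 3354 TPM in CTR hESC. All 6 stromal markers rose in nephron and hepatic organoids, the types with the most IGF2, with sums of 3974 and 5572 TPM and of 4140 and 2556 TPM. Cortical organoids summed to 35.2 and 89.5 TPM and lung organoids to 190.7 and 115.5 TPM of stromal markers, against 116.6 and 114.7 TPM in CTR hESC. Of the markers of the labelled type that were tested, 4 of 4 were higher in cortical, 5 of 5 in hepatic and 5 of 6 in nephron organoids. Of 5 lung markers, 2 could be tested and 1 was higher in lung organoids, where their sum of 53.3 and 41.4 TPM lay below that of cortical (148.5 and 170.8 TPM) and hepatic organoids (85.8 and 92.9 TPM), so lung is used as a label only.

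Genes that keep or read imprints were compared from a list of 16, of which 14 rows were tested. Of these, 3 were higher and 7 lower in cortical, 5 and 3 in nephron, 5 and 4 in hepatic, and 2 and 6 in lung organoids. DNMT3B, the de novo DNA methyltransferase of early embryos, had 21.9 ± 4.76 TPM in cortical, 29.2 ± 1.44 TPM in nephron, 113.9 ± 3.78 TPM in hepatic and 181.2 ± 83.6 TPM in lung CTR organoids, against 527.5 ± 1.72 TPM in CTR hESC. DNMT1, which copies methylation at replication, fell in all 4 types (log2 change -0.86, -1.0, -0.78 and -0.53). ZNF445, the zinc-finger protein that guards imprints in human cells, rose in all 4 (log2 change 1.04, 1.63, 0.85 and 1.08), and TRIM28, its partner, fell in cortical, nephron and hepatic organoids (-0.59, -0.50 and -0.50). ZFP57 was listed at 0 in all 62 libraries in both of its rows. As with RPS18, such a value can be a failed estimate, so ZFP57 is not shown to be absent. Of 15 tested rows of further imprinted genes, 2 were higher and 4 lower in cortical, 7 and 3 in nephron, 2 and 3 in hepatic, and 2 and 2 in lung organoids. Of 19 tested rows of genes that flank the imprinted domains, 2 were higher and 3 lower in cortical, 4 and 1 in nephron, 2 and 4 in hepatic, and 2 and 3 in lung organoids. Some of these genes, such as NAP1L4, have 2 rows. Of all genes tested, 52.5% were called in cortical, 52.5% in nephron, 43.3% in hepatic and 39.8% in lung organoids. The lists were not compared with all genes by a test.

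Among organoids of the same label but different age or culture condition, several members differed as widely as between cell types. Where both day and condition differ, they cannot be told apart, and comparisons of CTR with WT also differ in genotype label. Cortical WT organoids of PN96 at day 53 differed from SPIN at day 60 in 9 of 23 tested rows, 6 higher and 3 lower (44.1% of all genes called). NNAT had 3074 and 1684 TPM under PN96, against 87.5 and 152.4 TPM under SPIN, a log2 change of 4.29 ± 0.36 (adjusted p = 8.1e-06). Chip at day 54 overlapped PN96 (1540 and 2377 TPM), and SPIN stood apart. BLCAP was higher under PN96 as well (211.7 and 144.7 against 80.8 and 94.3 TPM, log2 change 1.00, adjusted p = 0.0018). All 3 neuron markers were higher under PN96 too, with sums of 1709 and 1623 TPM under PN96, against 709.3 and 642.2 TPM under SPIN. Cortical markers summed to 573.4 and 1086 TPM under PN96, against 181.2 and 155.1 TPM under SPIN, with 1 of 6 called higher, and the part of these cells in the NNAT difference was not tested.

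The opposite course was seen for IGF2, with 31.4 and 19.8 TPM under PN96 and 91.5 and 587.7 TPM under SPIN (log2 change -3.17 ± 0.67, adjusted p = 0.0033), and for IGF2R, with 23.2 and 23.6 TPM against 52.3 and 50.2 TPM (-1.10 ± 0.18, adjusted p = 0.00073). The SPIN libraries were far apart in IGF2, and the library with more of it also had more DLK1 (79.6 and 14.6 TPM) and PLAGL1 (54.8 and 15.49 TPM). Markers of other cells moved with this: stromal markers summed to 59.9 and 60.7 TPM under PN96, against 424.2 and 2946 TPM under SPIN, hepatic markers to 2.74 and 0.953 TPM against 82.2 and 1574 TPM, and endothelial markers to 0.246 and 0.25 TPM against 12.7 and 81.9 TPM. Their part in the IGF2 difference was not tested. Between cortical Chip and PN96 no imprinted row of 23 was called by limma (0.773% of all genes called; 3 rows at an unadjusted p under 0.05).

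**Figure D3:**
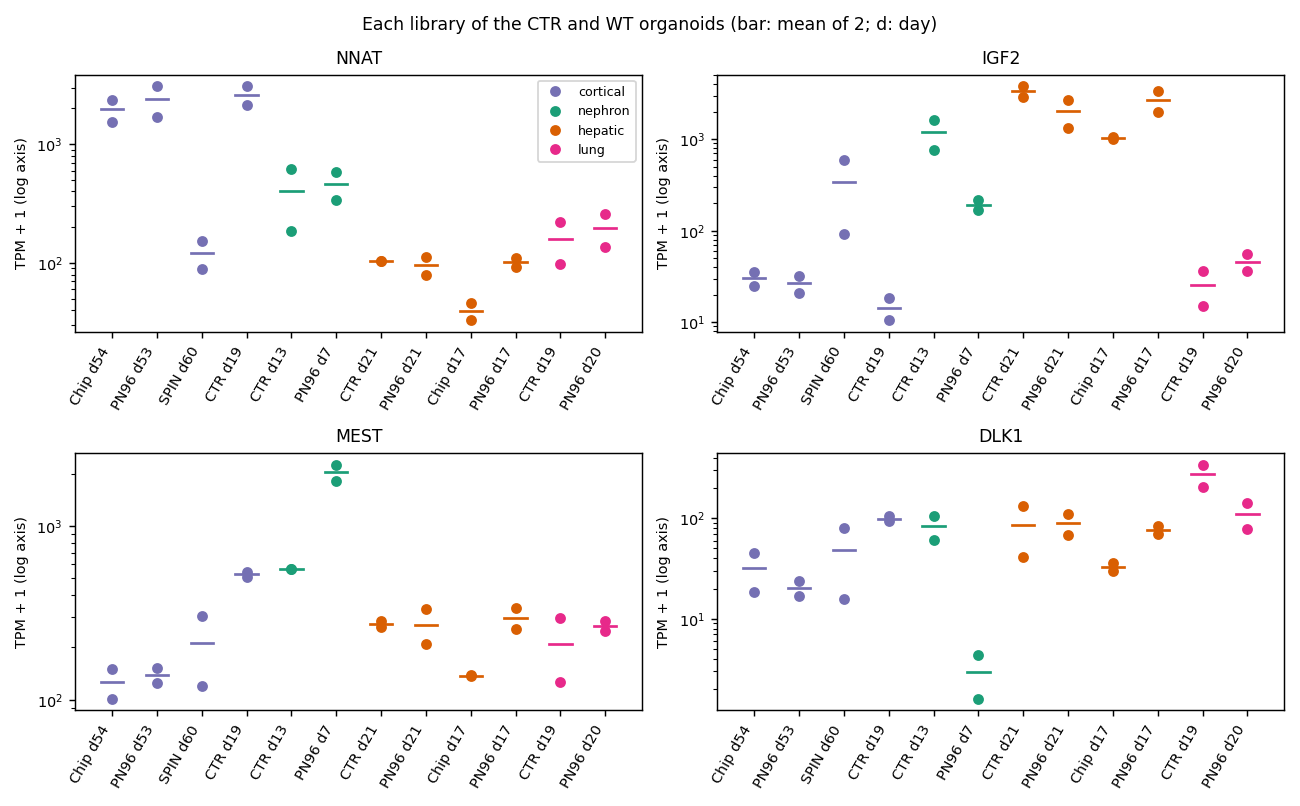
TPM of NNAT, IGF2, MEST and DLK1 in each CTR and WT organoid library (log axis, 2 points a group). NNAT is low in SPIN among the cortical groups, MEST is highest in nephron organoids of day 7, and IGF2 is highest in the hepatic groups.

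Later and earlier organoids differed as well. Nephron CTR organoids of day 13, set against nephron WT organoids of day 7, had 11 rows higher and 1 lower of 23 tested (51.6% of all genes called), and after rescaling by size factors 7 higher and 5 lower. DLK1 had 104.9 and 60.1 TPM at day 13, against 0.608 and 3.37 TPM at day 7 (log2 change 4.92 ± 0.44, adjusted p = 0.00012), and IGF2 had 756.5 and 1634 TPM against 169.7 and 214.7 TPM (2.54 ± 0.33, adjusted p = 0.00063). CDKN1C and PLAGL1 were higher too, by 2.7 and 1.09 on the log2 scale. MEST was the row that was lower before rescaling, with 561.9 and 568.0 TPM at day 13, against 2253 and 1803 TPM at day 7, the highest MEST levels of the series (log2 change -1.83 ± 0.10, adjusted p = 1.8e-05). Stromal markers summed to 3974 and 5572 TPM at day 13, against 510.5 and 513.4 TPM at day 7.

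Cortical WT organoids of PN96 at day 53, set against cortical CTR organoids of day 19, had 8 rows higher and 3 lower of 23 (43.3% of all genes called), and 5 higher and 4 lower after rescaling. KCNQ1OT1 had 4.44 and 3.81 TPM at day 53, against 0.311 and 0.433 TPM at day 19 (log2 change 1.90). PEG10 had 513.2 and 401.8 TPM against 237.4 and 258.4 TPM, and L3MBTL1 had 24.2 and 22 TPM against 6.30 and 10.6 TPM (log2 change 0.87 and 1.38, adjusted p = 0.0035 and 0.00078). MEST was lower at day 53 (151.3 and 124.4 against 510.2 and 541.3 TPM, log2 change -1.93 ± 0.34, adjusted p = 0.0014). DLK1 was lower too (22.8 and 15.8 against 92.9 and 103.5 TPM, -2.31 ± 0.63, adjusted p = 0.014), a call lost in 3 of 4 leave-outs with an adjusted p between 0.059 and 0.077. Neuron markers were higher at day 53 in 3 of 3 cases, with sums of 1709 and 1623 TPM at day 53, against 664.7 and 540.4 TPM at day 19. Of 6 cortical markers, 3 were higher and 1 lower, with sums of 573.4 and 1086 TPM at day 53, against 213.3 and 212.9 TPM at day 19. Their part in the differences of imprinted genes was not tested.

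Hepatic and lung organoids showed fewer differences. Of 26 hepatic rows, none was called between WT day 21 and day 17 under PN96 by limma (0.134% of all genes called; 3 rows at an unadjusted p under 0.05). Hepatic Chip at day 17 was lower than PN96 at day 17 for NNAT (32 and 45.1 against 90.8 and 109.3 TPM), MEST (138.4 and 135.2 against 335.2 and 253.5 TPM) and GNAS (100.8 and 104.1 against 158.1 and 147.3 TPM), with log2 changes of -1.37, -1.09 and -0.57 and 3.61% of all genes called. All 3 calls were lost without any library in turn and after rescaling. CDKN1C was higher in hepatic CTR than WT organoids at day 21 (12.6 and 6.92 against 3.09 and 1.72 TPM, log2 change 1.64, adjusted p = 0.039; 6.14% of all genes called), a call also lost in every leave-out. In lung organoids, CTR of day 19 was higher than WT of day 20 for CDKN1C (2.52 and 3.07 against 0.546 and 0 TPM), DLK1 (202.5 and 340.7 against 77.1 and 139.7 TPM) and INPP5F (138.9 and 144.0 against 86.1 and 89.5 TPM), 3 of 25 rows tested with 12% of all genes called. Each of these was lost in 2 or 3 of 4 leave-outs, with an adjusted p up to 0.16.

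Loss of NEAT1 changed few of the imprinted genes by this test. NEAT1 itself, given first as a check of the labels, averaged 0.190 ± 0.0876, 0.295 ± 0.314 and 0.381 ± 0.182 TPM in cortical, nephron and hepatic knockout organoids (SD, n = 4 each), against 6.95 ± 2.09, 37.5 ± 9.59 and 42.0 ± 3.17 TPM in CTR (n = 2 each), and fell by 3.51 ± 0.10 on the log2 scale over all 5 cell types (adjusted p = 1e-14). In lung organoids NEAT1 had 0.454 against 16.3 TPM and an adjusted p of 0.25, so a change of that size did not pass there. In hESC it had 0 and 0.0211 TPM in clone 1 and 0.0857 and 0.0698 TPM in clone 2, against 1.78 and 1.95 TPM in CTR, and did not pass either (log2 change -1.46 ± 0.23, adjusted p = 0.058). By limma, no imprinted row was called in hESC (of 16 tested; 0.6% of all genes called), cortical (of 19; 0.0722%), hepatic (of 25; 0.00474%) or lung organoids (of 25; 0.0%). An unadjusted p under 0.05 was reached by 6, 2, 3 and 0 rows in that order. Nor was any of 15 rows called on average over the cell types (1.18% of all genes called), in the interaction of knockout with cell type (2.22%) or between the clones (0.536%), with 1, 1 and 2 rows at an unadjusted p under 0.05.

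In nephron organoids 3 of 23 rows fell and none rose, with 7.23% of all genes called and 5.05% called lower. MEST had 372.0 and 363.9 TPM in clone 1 and 444.1 and 455.0 TPM in clone 2, against 561.9 and 568.0 TPM in CTR, a log2 change of -0.47 ± 0.06 (adjusted p = 0.0097). PLAGL1 had 48.2 and 46.9 TPM in clone 1 and 63.3 and 55.0 TPM in clone 2, against 75.3 and 81.1 TPM in CTR (-0.55 ± 0.09, adjusted p = 0.019). DLK1 had 30.9 and 27.8 TPM in clone 1 and 46.1 and 57.5 TPM in clone 2, against 104.9 and 60.1 TPM in CTR (-1.01 ± 0.22, adjusted p = 0.043). Every knockout library lay below both CTR libraries for these genes, and clone 2 lay nearer to CTR than clone 1. The calls of PLAGL1 and DLK1 were each lost in 5 of 6 leave-outs of a library, and with clone 2 alone none of the 3 was called. Stromal and endothelial markers were lower there too: 5 of 6 and 3 of 3 fell, with stromal sums of 1317 and 1243 TPM in clone 1 and 1912 and 1725 TPM in clone 2, against 3974 and 5572 TPM in CTR. Endothelial sums were 30.7 and 28.4 TPM in clone 1 and 68.1 and 52.3 TPM in clone 2, against 170.7 and 165.6 TPM in CTR, and their part in the lower imprinted genes was not tested.

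**Figure D4:**
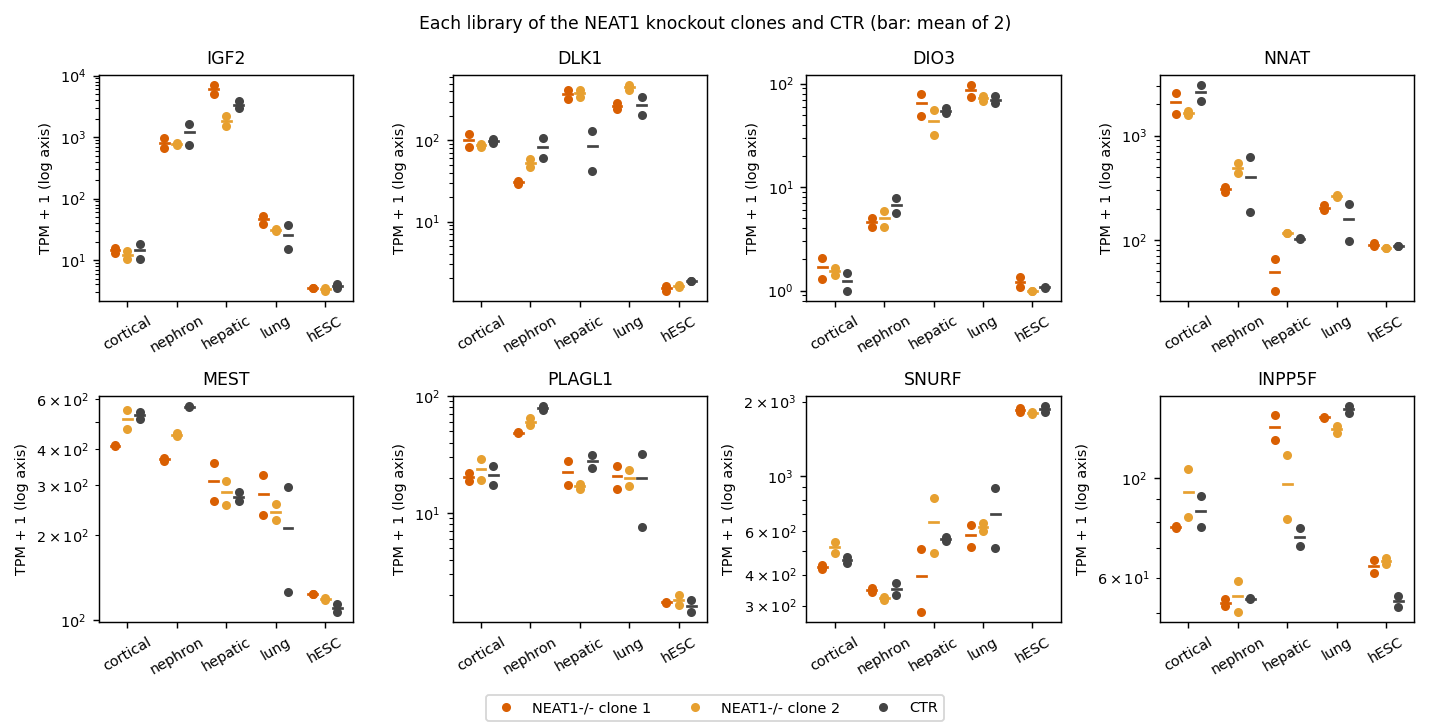
TPM of 8 imprinted genes in each library of NEAT1-/- clone 1, clone 2 and CTR, by cell type (log axis, 2 points a group). DLK1 is lower in both clones than CTR in nephron and higher in hepatic organoids, and SNURF and MEST differ far more between cell types than between clones and CTR.

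The authors' deposited tables, made per clone with DESeq2, called somewhat more. In nephron organoids the authors' deposited table for clone 1 called KCNQ1OT1 (log2 fold change -1.28, adjusted p = 4.9e-07), MEST (-0.59, adjusted p = 6.5e-05), PLAGL1 (-0.69, adjusted p = 0.00078) and DLK1 (-1.46, adjusted p = 0.0049), where 12.4% of all genes were called. For clone 2 the authors' deposited table called KCNQ1OT1 there (-0.81, adjusted p = 0.0087), with 3.77% of all genes called. In hESC it called GNAS (-0.19, adjusted p = 0.011) and PEG10 (0.24, adjusted p = 0.024) in clone 2, where 7.65% of all genes were called, and none in clone 1 (2.19%). The authors' deposited tables called no imprinted gene in cortical organoids of clone 1 or 2 (0.698% and 2.25% of all genes) or in lung organoids of clone 1 or 2 (0.0552% and 0.0894%).

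Hepatic organoids gave the largest separation, and it went the other way for DLK1. DLK1 had 414.0 and 321.7 TPM in clone 1 and 414.3 and 343.2 TPM in clone 2, against 40.5 and 130 TPM in CTR. All 4 knockout libraries lay well above both CTR libraries, and limma gave a log2 change of 2.34 ± 0.43 that did not pass (adjusted p = 0.33). The authors' deposited table called DLK1 in both clones, with log2 fold changes of 2.09 (adjusted p = 0.00086) and 2.08 (adjusted p = 0.00079), where 2.6% and 2.66% of all genes were called. Against hepatic WT organoids of day 21 (110.1 and 67.0 TPM), not compared by a test here, the clones were high as well. Hepatic markers differed between the same libraries, with sums of 38820 and 23770 TPM in clone 1 and 24360 and 5054 TPM in clone 2, against 7962 and 9671 TPM in CTR, and their part in the DLK1 level was not tested.

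The hepatic clones went apart in other members. IGF2 had 7096 and 4984 TPM in clone 1 and 2168 and 1523 TPM in clone 2, with CTR between them at 3800 and 2928 TPM, and the authors' deposited table gave log2 fold changes of 0.82 and -0.94, both with an adjusted p of 0.35. INPP5F was called in clone 1 (137.6 and 120.6 against 69.7 and 76.6 TPM) and not in clone 2 (111.8 and 80.1 TPM) by the authors' deposited table, with log2 fold changes of 0.80 (adjusted p = 0.0098) and 0.32 (adjusted p = 0.62). NNAT was called lower in clone 1 by the authors' deposited table (31.8 and 65.2 against 102.1 and 102.8 TPM; -1.08, adjusted p = 0.037), while clone 2 had 114.6 and 115.2 TPM. Whether the clones differ from each other in these genes within hepatic organoids was not tested. Among the genes that keep imprints, UHRF1, which guides DNMT1 to newly copied DNA, was the only 1 called on average over the cell types (log2 change 0.34 ± 0.08, adjusted p = 0.046).

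In hESC, PF-127 left the imprinted genes without a called difference at 0, 1 and 4 h by limma (0 of 20 rows at each time, beside 0.0%, 0.0% and 0.213% of all genes), and 1, 0 and 4 rows had an unadjusted p under 0.05. At 24 h only PEG10 of 20 rows was called, and it was lower, beside 1.23% of all genes called and 0.777% called lower. PEG10 had 90.5 and 86.7 TPM with PF-127, against 118.8 and 115.2 TPM without it, a log2 change of -0.40 ± 0.05 (adjusted p = 0.0031), which was lost without library 1 of the untreated group (adjusted p = 0.055). The change of PEG10 was -0.02 at 0 h, -0.04 at 1 h and -0.21 at 4 h (adjusted p = 0.12). Its average over the times was -0.17 ± 0.02 (adjusted p = 0.026; 0.207% of all genes called), a call lost in 13 of 16 leave-outs, and the interaction with time did not pass (adjusted p = 0.13).

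More members were called between 24 h and 0 h than for PF-127, and so were more of all genes. The time comparison had 4 libraries a side, and each PF-127 comparison at a single time had 2. Between 24 h and 0 h, 4 rows were higher and 6 lower of 20 (39.4% of all genes called). NNAT had 27.5, 28.8, 30.4 and 33.2 TPM at 24 h, against 40.2, 41.6, 48.7 and 50.0 TPM at 0 h, with and without PF-127 together (log2 change -0.57 ± 0.06, adjusted p = 4.4e-05). The 2 times did not overlap. IGF2 was lower by less than 1 TPM (0.817 ± 0.263 against 1.63 ± 0.189 TPM), and the other 8 called rows moved by at most 0.27 on the log2 scale. The hESC labelled CTR also differed from WT hESC of the time course at 0 h, in 9 rows higher and 3 lower of 20 (56.5% of all genes called), and in 5 higher and 3 lower after rescaling. NNAT again moved furthest, with 86.7 and 87.1 TPM in CTR (log2 change 0.94 ± 0.07, adjusted p = 7.8e-08), and SNRPN averaged 744.9 ± 34.0 TPM, against 569.1 ± 14.9 TPM (0.39 ± 0.04). These groups differ in genotype label, and the labels do not say in what else.

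Members of the same domain tended to have similar profiles. Over the 31 group means on the log2 scale, the median Pearson correlation was 0.60 for 26 pairs of rows in the same domain and 0.23 for 325 pairs in different domains. Over the 20 organoid groups alone it was 0.55 against -0.04, and 57.7% against 17.5% of pairs passed 0.5. The 26 pairs include the 2 rows of SLC22A18 with each other (0.89 among organoids) and SNRPN with SNURF, which lie on the same transcripts (0.99). With 1 row per gene and SNURF left out, a choice made after seeing the data, the medians were 0.62 for 19 pairs against 0.26 for 281 pairs over all groups, and 0.54 against -0.03 among organoids. Groups share cell types, and overlapping genes can share reads, so these values are descriptive. Among organoids, BLCAP and NNAT reached 0.84, PEG10 and SGCE 0.76, PEG10 and PPP1R9A 0.82, DLK1 and MEG3 0.64, and DLK1 and DIO3 0.54.

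Some neighbours did not share a profile. KCNQ1 and its antisense RNA KCNQ1OT1 had a correlation of -0.01 among organoids, and CDKN1C and KCNQ1OT1 of -0.26. SNRPN and UBE3A, separate genes on opposite strands of the same domain, had -0.34. In cortical CTR organoids DIO3 was listed at or close to 0 and DLK1 was not, as the plot of neighbouring pairs shows.

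**Figure D5:**
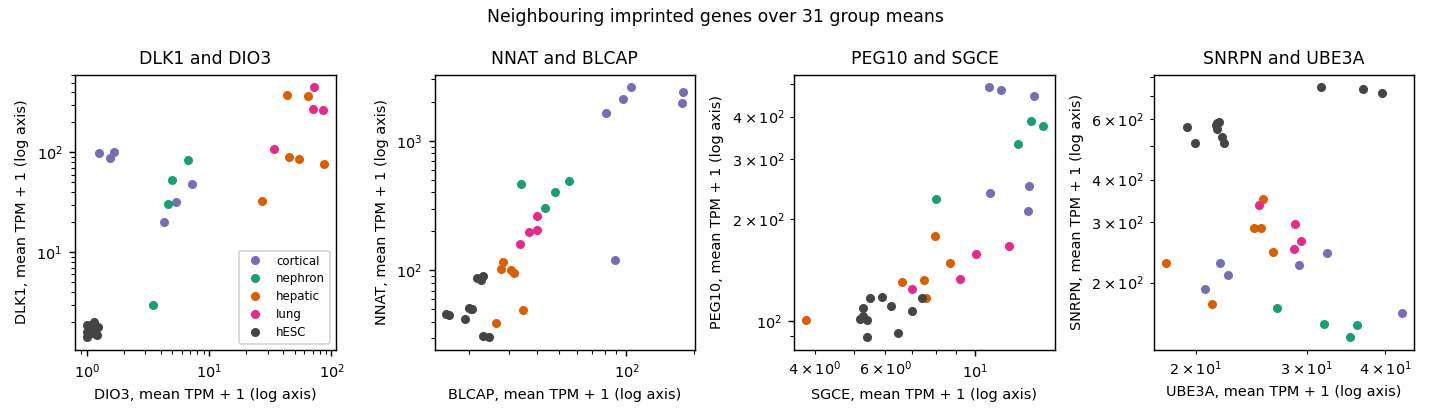
Group means (TPM, log axes, 31 groups) of 4 pairs of neighbouring genes: DLK1 and DIO3, NNAT and BLCAP, PEG10 and SGCE, SNRPN and UBE3A. NNAT and BLCAP rise together (correlation 0.84 among organoids) and DLK1 and DIO3 less closely (0.54). SNRPN separates hESC from organoids while UBE3A does not.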

How the data were processed

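The 62 polyA libraries were assigned to 31 groups of 2 from the labels. Per the submitters' processing notes, the submitters used cutadapt 4.1 through Trim Galore 0.6.7 for trimming, STAR 2.7.10a for alignment to GRCh38, featureCounts 2.0.1 for counting and DESeq2 1.36.0 (R 4.2.0) for comparison; the annotation release is not given in the sources used here. The main table deposited by the authors holds TPM per gene and library. Counts were not used, so depth is unknown; 16989 to 20396 genes reached 1 TPM per library. For each clone and cell type the authors deposited a DESeq2 table with a log2 fold change against CTR, its p-value and adjusted p-value, the base mean (a signal of normalized counts) and the test score.

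The imprinted genes and all other lists were chosen with earlier results of these data known, and rows were matched by symbol. Positions came from GENCODE release 29, in which 32 of the 36 rows have an identifier, and promoter windows from RefSeq GRCh38.p14. Values of log2(TPM + 1) were fitted with limma 3.58.1 (R 4.3.3), with a trend of the variance on the mean, two-sided tests and p adjusted over all genes tested, and were tested on simulated data. A gene was tested at 1 TPM in at least 2 libraries of a fit (in each of 5 cell types for averages over them). Adding 1 understates changes of genes at low TPM. Full statistics were given for called genes with a mean of at least 5 TPM in the higher group, at most 12 per comparison, by size of change; other called genes have levels with a log2 change or an adjusted p. Errors beside means are SD over the libraries, and beside log2 changes standard errors. Alternatives were a pseudocount of 0.1, no filter, rescaling by size factors, a replicate block, each clone alone and leaving out each library.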

Additional observations from a re-analysis of the deposited data

How the results depend on the processing

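Counts of called imprinted rows kept within 1.5 times the value given under each alternative, apart from these cases. For the knockout in nephron organoids clone 2 alone called 0, and leaving out a library gave 1 to 4. With no filter the interaction of knockout with cell type called 1. For hepatic CTR against WT organoids the count was 0 with a pseudocount of 0.1, 0 with no filter and 3 with the replicate block. For hepatic Chip against PN96 it was 1 with no filter, 0 after rescaling and 5 with the replicate block. Leaving out each library gave 0 to 0 for both of these hepatic comparisons, 0 to 2 for the knockout in lung organoids and the interaction, 0 to 1 for the knockout average, PF-127 at 24 h and the PF-127 average, 0 to 6 for lung CTR against WT, and 7 to 8 for cortical day 53 against day 19. GNAS reversed after rescaling, to -0.06 in nephron day 13 against day 7 and to -0.04 in cortical day 53 against day 19. Against hESC, leaving out a library gave 13 to 15 calls in cortical, 13 to 16 in nephron, 9 in hepatic and 13 to 16 in lung organoids.

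Of 127 changes of single genes, 125 kept direction and call with a pseudocount of 0.1, 120 with no filter, 109 after rescaling and 124 with the replicate block. Replicate numbers were shared between groups, but libraries of the same number did not deviate together throughout any fit. No fit had every correlation over 0.1, and they ran from -0.27 to 0.37. The largest shares over 0.1 were 2 of 3 in the hepatic knockout fit and 6 of 15 in the fit of all hepatic libraries. The numbers are not read as pairs in the main fits, and counts that moved with the replicate block are given above. The cause of these shifts was not tested. With 2 libraries a group, no counts and TPM near 0 for several genes, a change that was not called is not shown to be absent.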

Other observations

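Genes that act on IGF2 or receive its signal were also compared between CTR organoids and CTR hESC. IGF1R, the receptor through which IGF2 drives growth, rose in cortical (46.2 ± 7.97 against 23.7 ± 0.233 TPM), lung (41.6 ± 10.6 TPM) and nephron organoids (35.2 ± 4.61 TPM), with log2 changes of 0.92, 0.76 and 0.54. Single genes outside the imprinted members were not checked by rescaling or leave-outs. Rescaling moved the median of all genes in nephron organoids by -0.37. In hepatic organoids, where IGF2 was most abundant, IGF1R had 32.2 ± 1.16 TPM and was not called (adjusted p = 0.11 by limma). INSR, the insulin receptor gene, rose in lung (23.1 ± 4.03 against 11.9 ± 0.173 TPM) and hepatic organoids (21.6 ± 1.45 TPM), with log2 changes of 0.90 and 0.81.

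Among the RNA-binding proteins that bind IGF2 mRNA, IGF2BP2 rose in hepatic (195.4 ± 8.04 against 123.8 ± 6.59 TPM) and lung organoids (178.1 ± 3.15 TPM). IGF2BP3 fell in hepatic (55.5 ± 5.89 against 127.3 ± 6.14 TPM), nephron (81.2 ± 1.09 TPM) and lung organoids (88.5 ± 16.8 TPM). IGF2BP1 fell in cortical organoids (99.8 ± 20.6 against 200.7 ± 13.0 TPM, log2 change -1.01), and LIN28B, a fetal RNA-binding protein, fell in all 4 types, to 42.3, 96.3, 88.4 and 75.1 TPM in cortical, nephron, hepatic and lung organoids against 139.1 TPM in hESC. Of these 6 genes, 1 was higher and 2 lower in cortical, 1 and 2 in nephron, 2 and 2 in hepatic, and 3 and 2 in lung organoids. The shares of all genes called were 52.5%, 52.5%, 43.3% and 39.8% in the same order.

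Further imprinted genes outside the list also differed by type. WT1, a transcription factor of the kidney that serves as a nephron marker too, had 13.9 ± 3.76 TPM in nephron organoids against 0.0618 ± 0.0109 TPM in hESC. TFPI2, an inhibitor of serine proteases near PEG10, fell in cortical organoids (1.77 ± 0.651 against 15.1 ± 0.771 TPM, log2 change -2.55). RB1, the retinoblastoma gene, rose in cortical (47.1 ± 1.46 against 19.8 ± 0.735 TPM) and nephron organoids (39.5 ± 5.25 TPM). FAM50B, a paternally expressed retrogene, rose in nephron (11.1 ± 2.39 against 5.87 ± 1.28 TPM) and fell in hepatic (2.56 ± 0.904 TPM) and lung organoids (2.11 ± 0.156 TPM).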
